A study of Rattus norvegicus with 192 samples.

Results

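The hypothalamic peptides of feeding and arousal were followed as 6 genes, Npy, Agrp, Cartpt, Pmch, Hcrt and Gal, out of 17483 gene rows in the count table of hypothalamus and pituitary. The members were chosen by symbol, all 6 were found, and all 6 passed the filter on low counts, which left 6596 genes for testing. RNA was profiled by 3' bulk RNA barcoding, in which a well barcode is attached during reverse transcription and counts are made near the 3' end of each transcript. The rats were adult wild type males of the Crl:CD(SD) stock, fed ad libitum under a reversed light cycle and gavaged daily for 7 days, from postnatal day 56 to 62. The groups were corn oil vehicle, vancomycin at 8 mg per kg body weight a day, PFOS at 3 mg per kg a day, and both compounds together at those doses (the combination). Vancomycin is a glycopeptide antibiotic, and PFOS (perfluorooctane sulfonate) is a persistent fluorinated surfactant. The labels do not say that each library came from a separate rat, so p-values measure the spread between libraries, which may in part be technical.

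Each group had 12 hypothalamus libraries. One combination library, number 44, held 1280 counts and was left out, which left 47 libraries with 172700 to 1240091 counts and a median of 726925. The median total was 875789.5 in vehicle, 751640.5 in vancomycin, 662537 in PFOS and 531350 in the combination libraries. Each treatment filled a plate row of its own, so the plate row and the treatment cannot be told apart. Levels are given in CPM, each gene's count scaled to the same total in every library, and a difference is a log2 fold change with its standard error (SE) from edgeR's quasi-likelihood test. "Rose", "fell" and "called" refer to a Benjamini-Hochberg adjusted p under 0.05 over all genes tested.

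The peptides mark separate groups of hypothalamic neurons. Npy (neuropeptide Y) and Agrp (agouti-related peptide) are made together in neurons of the arcuate nucleus that drive food intake, Agrp by opposing melanocortin signalling. Cartpt encodes the CART peptides, which are found in many hypothalamic nuclei and are linked to reduced feeding. Pmch (pro-melanin-concentrating hormone) and Hcrt (hypocretin, also called orexin) are made in different but intermingled neurons of the lateral hypothalamus. Hcrt neurons sustain wakefulness, while Pmch neurons promote feeding and are active in sleep. Gal (galanin) is made in several nuclei and acts on feeding, sleep and hormone release. In bulk tissue, fewer cells of a type and less RNA per cell cannot be told apart.

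Start-site sequences are shown for the pair of arcuate peptides that varied together, for the lateral hypothalamic peptide Hcrt and for Gal, because the results below turn on these genes. They are the 250 bases before the RefSeq start site on the assembly GRCr8, read 5' to 3' on the gene's strand, with capitals marking TATAAA and TGACG. Npy lies on the plus strand and the others on the minus strand. Entries were present for 5 of the 6 members.
Npy, chr4:80211861-80212110: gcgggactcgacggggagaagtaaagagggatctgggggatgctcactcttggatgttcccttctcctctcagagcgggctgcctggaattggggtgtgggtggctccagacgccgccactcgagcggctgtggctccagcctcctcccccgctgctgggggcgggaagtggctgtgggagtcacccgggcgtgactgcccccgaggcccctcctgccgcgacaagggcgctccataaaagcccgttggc
Agrp, chr19:50359498-50359747: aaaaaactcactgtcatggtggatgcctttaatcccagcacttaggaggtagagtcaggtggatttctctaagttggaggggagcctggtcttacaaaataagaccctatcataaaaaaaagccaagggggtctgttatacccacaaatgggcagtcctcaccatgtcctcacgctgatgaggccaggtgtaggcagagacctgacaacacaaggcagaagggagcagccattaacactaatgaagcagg
Hcrt, chr10:86191525-86191774: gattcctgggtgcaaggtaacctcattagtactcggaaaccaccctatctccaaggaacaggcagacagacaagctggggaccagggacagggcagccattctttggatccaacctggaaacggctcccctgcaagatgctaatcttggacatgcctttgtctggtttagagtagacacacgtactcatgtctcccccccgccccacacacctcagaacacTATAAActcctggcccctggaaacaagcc
Gal, chr1:210084573-210084822: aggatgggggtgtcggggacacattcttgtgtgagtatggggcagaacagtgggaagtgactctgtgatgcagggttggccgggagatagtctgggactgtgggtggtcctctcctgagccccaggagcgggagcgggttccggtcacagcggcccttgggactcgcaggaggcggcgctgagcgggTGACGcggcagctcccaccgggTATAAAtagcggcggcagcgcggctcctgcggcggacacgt
In windows that also took in 50 bases after the start, TATAAA was searched on the gene's strand, and TGACGTCA, TGACG, TTCNNNGAA and CAGCTG on both strands. TGACG is contained in TGACGTCA, and a match is a description of the letters only. TATAAA began 29 bases before the start of Hcrt and 41 bases before that of Gal, and it occurred in 8.80% of 33469 promoter windows of the same length. TGACG began 63 bases before the start of Gal, and it occurred in 21.2% of the windows. TGACGTCA began 142 bases before the start of Cartpt, and it occurred in 1.83% of the windows. None of the 5 motifs was found in the windows of Npy and Agrp. Pmch, which varied together with Hcrt, had no entry, so the windows of that pair could not be compared. TTCNNNGAA and CAGCTG, found in 8.87% and 15.1% of all windows, were in none of the 5 members' windows.

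One library stood apart from the other hypothalamus libraries. PFOS library 31 held 1028625 counts, and all 6 peptides were lower there than in every one of the other 46 libraries. Pmch stood at 7.78 CPM in library 31, against 401 to 2992 CPM in the others. Gal stood at 41.8 CPM against 370.1 to 1069, and Cartpt at 30.1 against 333 to 623. The peptides of arcuate neurons were low as well, with Npy at 39.9 CPM against 83.7 to 255.5 and Agrp at 0.97 against 6.44 to 63.7. Hcrt stood at 9.72 CPM against 40.5 to 538.

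The same library was low in many but not all other hypothalamic transcripts and high in thalamic ones. Oxt (oxytocin) stood at 4.86 CPM against 359 to 1794 in the other libraries, and Avp (vasopressin) at 0.97 against 158 to 896. Of 12 genes of hypothalamic neurons, 7 lay below every other library and 2 above. Of 27 other peptides of feeding and arousal, 13 lay below and 3 above. The sum of 6 arcuate markers, 249 CPM, lay inside the range of the others (158 to 427), with 2 of the genes below every other library and 1 above. That of 5 suprachiasmatic markers, 88.5 CPM, lay above theirs (11.5 to 50.8), although only 1 of the genes lay above every other library and 0 below. The summed level of a list of 7 thalamus markers was 2649 CPM in library 31 and 535 to 1227 CPM in the others. Of these 7 genes, 4 lay above every other library, among them the transcription factor gene Tcf7l2 at 493 CPM against 37.6 to 129 and Prkcd, a protein kinase C gene, at 370.4 against 3.14 to 86.9. Gpr151 and Chrna3, which are not on the thalamus list and were chosen after their values were seen, stood at 32.1 and 43.7 CPM against at most 1.13 and 4.31. The library's median correlation with the other libraries over 4973 genes was 0.912, the second lowest after the shallowest library, combination 41, at 0.903. Pomc, at 82.6 CPM, lay inside the range of the other libraries (73.0 to 324). Apart from Pomc, library 31 goes against its hypothalamus label in the hypothalamic peptides named here. The contrasts, spreads and correlations of the 6 peptides are therefore given without it and with all 47 libraries, and leaving it out was chosen after its values were seen.

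**Figure D1:**
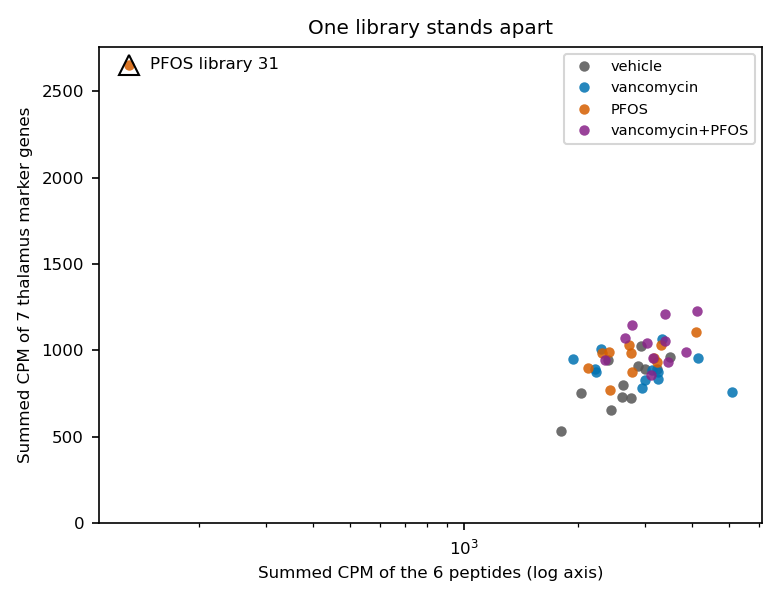
Summed CPM of the 6 peptides (x, log axis) against the summed CPM of 7 thalamus marker genes (y) in the 47 hypothalamus libraries, 1 point per library, coloured by treatment. PFOS library 31, marked by a triangle, stands at 130 on the x axis and 2649 on the y axis, while the others span 1810 to 5101 and 535 to 1227.

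The mean CPM of each of the 6 transcripts was higher in hypothalamus than in pituitary, thyroid or liver. Over the 46 libraries, the mean was 162 ± 39.4 CPM for Npy (SD, n = 46), 27.7 ± 11.5 for Agrp, 476 ± 71.0 for Cartpt, 1369.9 ± 552 for Pmch, 236 ± 84.0 for Hcrt and 684 ± 144 for Gal. In the 48 pituitary libraries, the mean of Cartpt was 363 CPM, which was 76.2% of its hypothalamic mean. Single pituitary libraries ran from 105 to 1136 CPM of Cartpt, a span that takes in the hypothalamic range of 333 to 623. Gal stood at 109 CPM in pituitary, or 15.9% of the hypothalamic mean, and Npy at 17.3 CPM, or 10.7%. Agrp, Pmch and Hcrt stood at 1.34, 5.33 and 2.85 CPM in pituitary. In thyroid and liver, the highest of the 6 means was that of Npy, at 7.59 and 6.65 CPM. The growth hormone transcript Gh1, a pituitary product, averaged 291101 CPM in pituitary. CPM is a share of a library's counts, so Gh1 lowers the CPM of every other gene there. The order of Cartpt between hypothalamus and pituitary is therefore not settled by CPM. In hypothalamus, Gh1 stood at 1.54% of its pituitary level. Pituitary Cartpt and Gal taken at that same percentage would amount to 5.57 and 1.67 CPM. Whether pituitary tissue entered the hypothalamus libraries was not tested.

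With all 47 libraries, none of the 6 peptides was called in any of the 6 contrasts, by edgeR or by DESeq2, and 0 of 6 had an unadjusted p under 0.05. The background of called genes was 4.37% of 6596 for PFOS against vehicle, 0% for vancomycin against vehicle and 8.14% for the combination against vehicle. It was 7.82% where PFOS was added to vancomycin, called PFOS in vancomycin-treated rats. It was 0% where vancomycin was added to PFOS, called vancomycin in PFOS-treated rats, and 0% for the interaction. By DESeq2 the background was 5.25% for PFOS, 9.04% for the combination and 8.6% for PFOS in vancomycin-treated rats. At an unadjusted p under 0.05, edgeR gave 1358 of 6596 genes for PFOS, 1537 for the combination and 1507 for PFOS in vancomycin-treated rats. For the 3 contrasts at 0%, which are vancomycin against vehicle, vancomycin in PFOS-treated rats and the interaction, edgeR gave 184, 490 and 278 genes at an unadjusted p under 0.05, and DESeq2 called 0 as well. Without library 31 the background was 0.826% of 6537 genes for PFOS against vehicle, 8.92% for the combination and 8.55% for PFOS in vancomycin-treated rats. It was again 0% for the other 3, with 193, 514 and 256 genes at an unadjusted p under 0.05. In that setting 1 of the 6 peptides, Gal, was called, in the combination against vehicle. Gal was also the only peptide with an edgeR unadjusted p under 0.05 there. That p was 0.00854 for PFOS, 0.00129 for the combination and 0.00614 for PFOS in vancomycin-treated rats. In the same order, 1128, 1603 and 1551 of 6537 genes had an unadjusted p under 0.05. The vehicle libraries enter 4 of the 6 contrasts and the combination libraries 4, so the contrasts are not independent of each other.

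Gal had higher group medians in PFOS and in the combination than in vehicle and vancomycin. It spanned 425 to 807 CPM in vehicle, with a median of 619, and 370.1 to 833 in vancomycin, with a median of 621. In PFOS it spanned 582 to 1002 CPM, with a median of 712, over the 11 libraries other than library 31. In the combination it spanned 667 to 1069 CPM, with a median of 751. All 11 combination libraries lay above the vehicle mean of 601 ± 126 CPM (SD, n = 12) and 4 lay above the highest vehicle library, yet the groups overlapped. Of the 11 PFOS libraries, 10 lay above the vehicle mean and 2 above the highest vehicle library.

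The test of Gal turned on library 31. With all 47 libraries, the combination differed from vehicle by a log2 fold change of 0.35 ± 0.20 (SE), with an edgeR adjusted p of 0.285. Without library 31, which is in neither of these groups but enters the shared estimate of spread, Gal rose by 0.36 ± 0.11, with an adjusted p of 0.0229. A fit of only the combination and vehicle libraries, which does not use library 31 either, gave 0.37 ± 0.10 and an adjusted p of 0.0187, on a background of 8.09% of genes called. Against vancomycin alone, the combination differed by 0.30 ± 0.11 without library 31, with an adjusted p of 0.0628, and by 0.30 ± 0.10 with 0.0403 in the fit of those 2 groups, where 9.86% of genes were called. When library 31 and each other library in turn were left out, the combination call held in 45 of 46 fits and was lost without combination library 47 (0.30, adjusted p 0.0699). PFOS alone differed from vehicle by 0.16 ± 0.20 with library 31 (adjusted p 0.687) and by 0.29 ± 0.11 without it (adjusted p 0.129). The PFOS effect averaged over rats with and without vancomycin, a contrast added after the data were seen, was 0.23 ± 0.14 with all libraries (adjusted p 0.256, background 20.3% called by edgeR and 20.8% by DESeq2). Without library 31 it was 0.30 ± 0.07 with an adjusted p of 0.00408, on a background of 19% called.

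The difference made by vancomycin in Gal was small beside its spread. Vancomycin against vehicle gave a log2 fold change of 0.06 ± 0.10 without library 31, with a 95% interval from -0.15 to 0.27, and 0.06 ± 0.20 with all 47. The interaction, which asks whether the PFOS difference was another with vancomycin present, gave 0.02 ± 0.15 with an interval from -0.29 to 0.32, and 0.14 ± 0.28 with all 47. Sequencing depth moved with the PFOS difference: the combination libraries had the lowest median total, and Gal was lower in deeper libraries, with r = -0.40 between the group-centred Gal level and log2 total counts (46 libraries, permutation p 0.00577, adjusted over 60 relations 0.0216). With all 47 libraries r was -0.34 (adjusted 0.0172). With log2 depth as a covariate and without library 31, the combination difference was 0.22 ± 0.12 with an adjusted p of 0.453, and the averaged PFOS difference was 0.21 ± 0.08 with an adjusted p of 0.168. In that setting 50 of 6537 genes were called for the combination, or 0.765%. With all 47 libraries and the depth covariate these differences were 0.14 ± 0.22 and 0.10 ± 0.15 (adjusted p 0.850 and 0.763). Without library 31 and with only the libraries of usual barcode composition, the combination difference was 0.26 ± 0.12 with an adjusted p of 0.213, while the averaged PFOS difference was 0.25 ± 0.08 with an adjusted p of 0.0264. The combination call without library 31 was also lost without a filter on low counts (0.34 ± 0.11, adjusted p 0.0874) and with a depth minimum of 500000 counts (0.35 ± 0.12, adjusted p 0.0825), while the averaged PFOS difference was called in both. The setting of usual barcodes left out 4 combination libraries whose 6-base well barcodes hold 3 G or C bases in place of 1. The thalamus marker sum also moved with treatment, with medians of 847 CPM in vehicle, 881 in vancomycin, 984 in PFOS (without library 31) and 1045 in the combination, while its r with Gal inside the groups was 0.09 (adjusted permutation p 0.740), or -0.67 with all 47 libraries (0.111). Markers of other cell types were called in the combination as well: the blood genes Hbb, Hbb-b1 and Hba-a1 fell by 0.70, 0.59 and 0.50 on the log2 scale, the astrocyte genes S100b and Agt by 0.24 and 0.25, and the microglia gene C1qb by 0.55. The thalamus marker Calb2 rose by 0.35, and without library 31 Slc17a6 rose by 0.30. The part of depth, barcode, thalamic tissue and these other cells in the differences of Gal, and of Npy1r, Pomc and Ctsl below, was not tested.

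**Figure D2:**
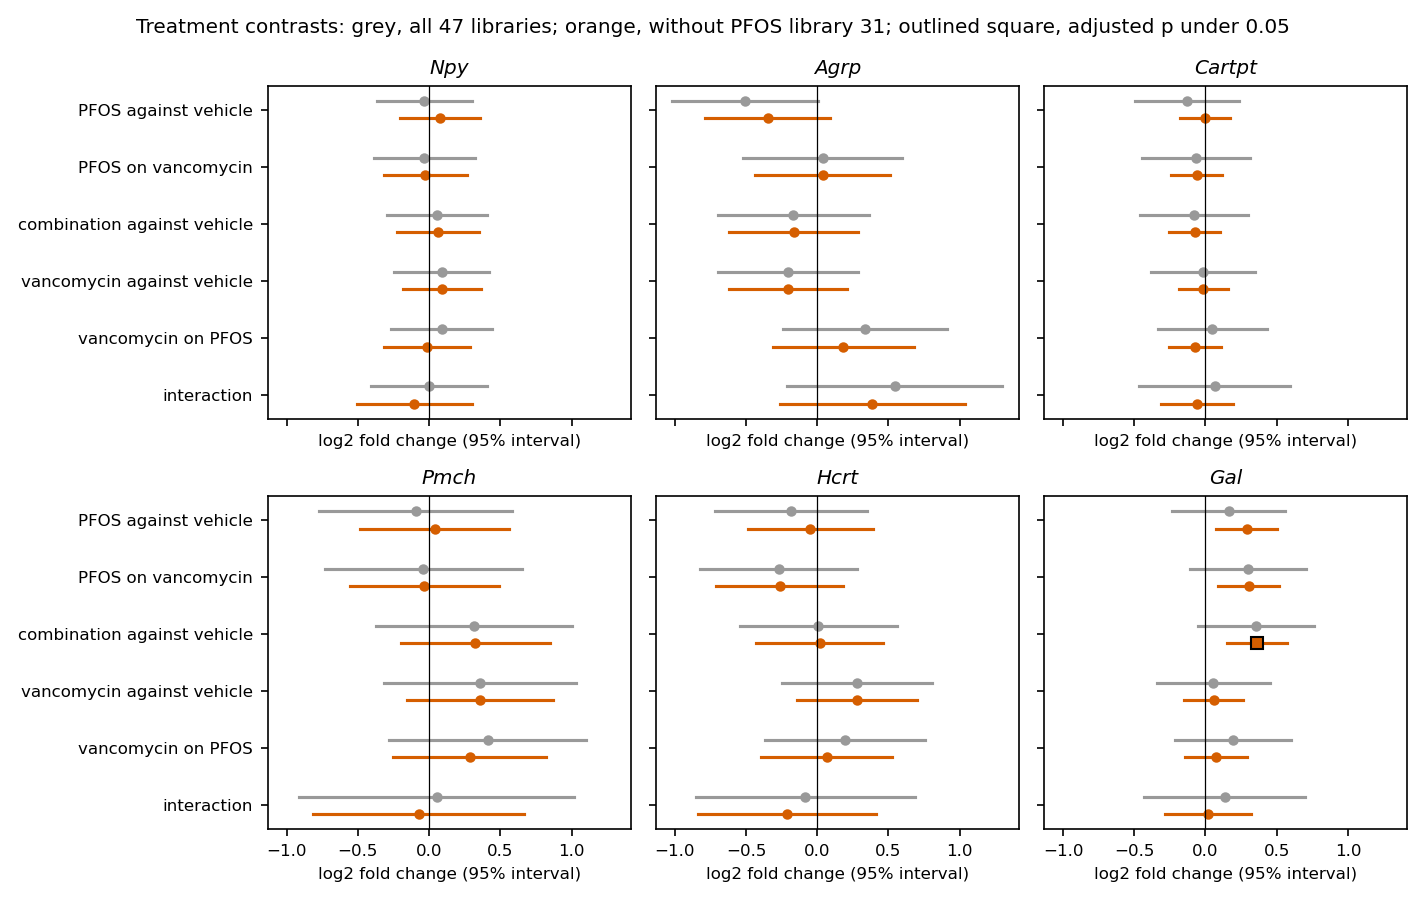
Log2 fold change with its 95% interval for each peptide in the 6 contrasts, from edgeR with all 47 libraries (grey) and without PFOS library 31 (orange). The outlined square marks the one value with an adjusted p under 0.05, Gal in the combination against vehicle at 0.36, and every other interval belongs to an uncalled value.

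The arcuate peptides showed no called difference. Npy spanned 106 to 212 CPM in vehicle with a median of 147, 83.7 to 255.5 in vancomycin with a median of 157, and 102 to 252 in the combination with a median of 169. In PFOS it spanned 128 to 250.1 CPM with a median of 149, apart from library 31. The groups overlapped, and Npy differed between PFOS and vehicle by a log2 fold change of 0.08 ± 0.14 without library 31 (edgeR adjusted p 0.828), with a 95% interval from -0.21 to 0.36. The value with all 47 libraries was -0.03 ± 0.17 (adjusted p 0.948).

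Agrp was the least counted peptide and among the more variable ones. It spanned 15.3 to 59.0 CPM in vehicle with a median of 27.3, 6.44 to 45.2 in vancomycin with a median of 23.97, and 14.4 to 63.7 in the combination with a median of 28.04. In PFOS it spanned 12.6 to 37.1 CPM with a median of 22.5, apart from library 31, and 2 of these 11 libraries lay above the vehicle mean of 30.1 CPM. The log2 fold change of PFOS against vehicle was -0.51 ± 0.25 with all libraries (edgeR unadjusted p 0.0526, adjusted p 0.250) and -0.35 ± 0.22 without library 31 (adjusted p 0.414). In vancomycin-treated rats PFOS gave 0.04 ± 0.24, and the interaction of 0.39 ± 0.32 was not called (0.04 ± 0.28 and 0.54 ± 0.38 with all 47 libraries). Agrp had 898 counts in all over the 47 libraries, and as few as 5 in a library other than 31. The RefSeq gene overlaps Ripor1, which is in the count table, and LOC120098617, which is not. Because the use of strand in the counting is not given in the sources used here, reads from the overlap could not be assigned with certainty.

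Without library 31, Cartpt had the lowest spread of the peptides. It spanned 333 to 623 CPM over the 46 libraries, and its group means lay between 467 ± 73.3 in the combination (n = 11) and 483 ± 72.4 in PFOS (n = 11). Its biological coefficient of variation in edgeR (BCV, the spread between libraries beyond counting error) was 0.148, beside 0.151 for the median gene tested. Its BCV with all 47 libraries was 0.308, above the 0.268 of Npy, with a median gene at 0.157. PFOS and vehicle differed by 0.00 ± 0.09 on the log2 scale (-0.0027 before rounding), with an interval from -0.18 to 0.17. For the combination against vehicle the interval ran from -0.25 to 0.10. These differences were, with all 47 libraries, -0.13 ± 0.18 and -0.08 ± 0.19.

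The lateral hypothalamic peptides had the highest BCVs, with library 31 and without it. Pmch spanned 401 to 2135 CPM in vehicle with a median of 1188, 472 to 2992 in vancomycin with a median of 1526, and 921 to 2174 in the combination with a median of 1418. In PFOS it spanned 408 to 2520.1 CPM with a median of 1080.2, apart from library 31. Its BCV without library 31 was 0.425, larger than that of 98.4% of the genes tested. Vancomycin against vehicle gave a log2 fold change of 0.36 ± 0.25 (edgeR adjusted p 0.9996, unadjusted p 0.165), with an interval from -0.15 to 0.87, and 0.36 ± 0.33 with all 47.

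Hcrt spanned 138 to 306 CPM in vehicle with a median of 232, 87.5 to 538 in vancomycin with a median of 282, and 40.5 to 319 in the combination with a median of 260.0. In PFOS it spanned 124 to 307 CPM with a median of 245, apart from library 31. The value of 40.5 CPM came from combination library 41, the shallowest kept library, and rested on 7 counts. Vancomycin against vehicle gave 0.28 ± 0.21, with an interval from -0.14 to 0.70, and 0.28 ± 0.26 with all 47. The BCV of Hcrt was 0.367 without library 31, that of Agrp 0.295, that of Npy 0.216 and that of Gal 0.173. The BCV with all 47 libraries was 0.580 for Pmch, 0.469 for Hcrt, 0.372 for Agrp and 0.331 for Gal. For the combination against vehicle, the SE was 0.26 for Pmch and 0.11 for Gal.

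**Figure D3:**
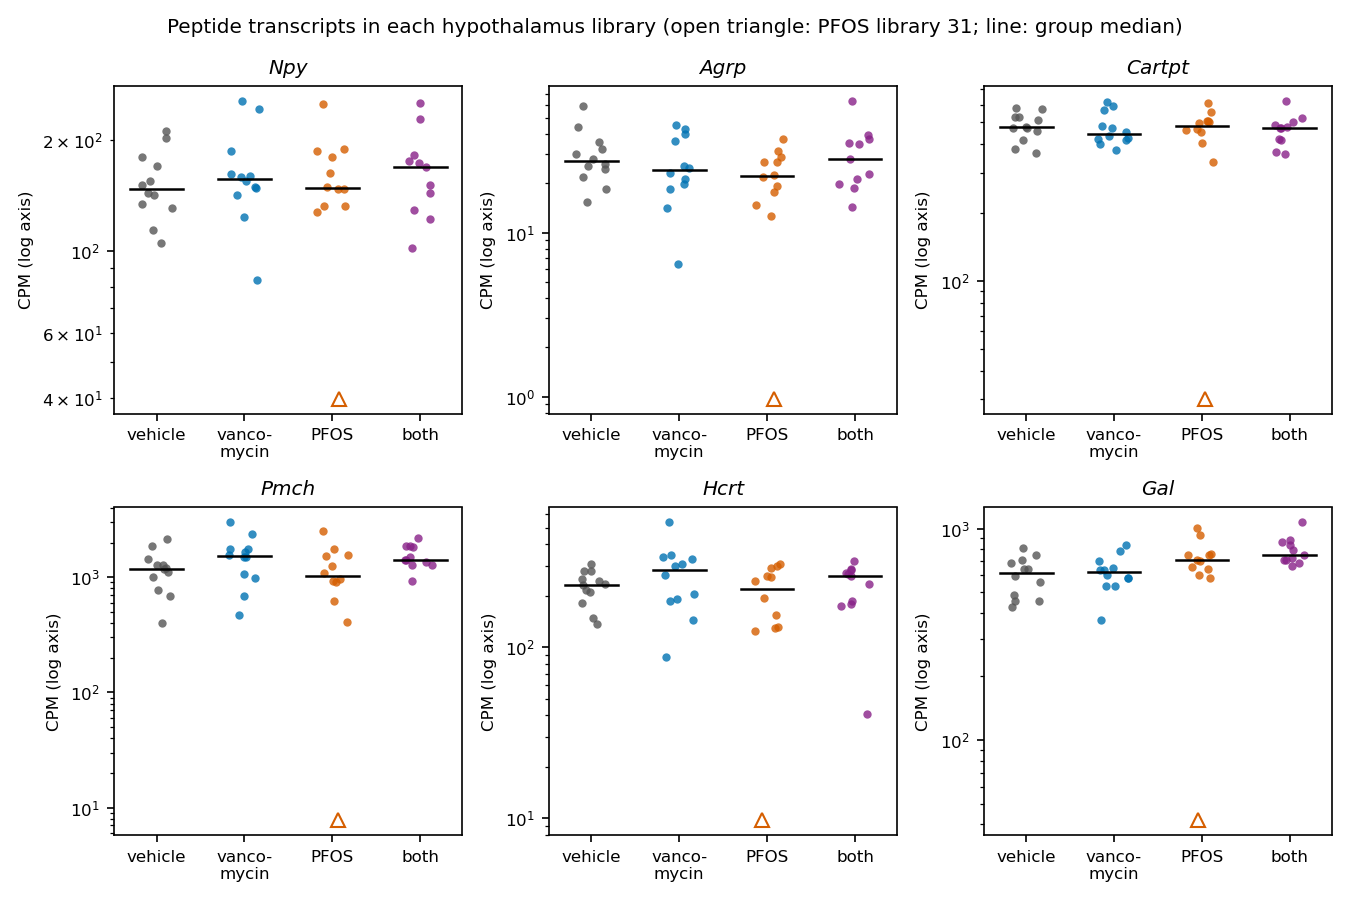
CPM of each peptide (log axis) in the 47 hypothalamus libraries by treatment, 1 point per library, with the group median as a line and PFOS library 31 as an open triangle. Library 31 is the lowest point in all 6 panels, the groups overlap in each panel, and Gal shows higher medians in PFOS (706 with library 31) and in both compounds (751) than in vehicle (619).

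The peptides did not vary independently between libraries. Levels were taken as log2(CPM + 1) with the treatment group means subtracted, and the 15 pairs were tested by permuting libraries within groups, with p-values adjusted over the 15. Without library 31, 5 of the 15 pairs passed. Npy and Agrp varied together between libraries, with r = 0.74 and Spearman's rho of 0.72 (46 libraries, permutation p 1e-05, the smallest the permutations can give, adjusted 7.5e-05). Within the groups, r lay between 0.58 in PFOS and 0.90 in vancomycin. Without the 2 libraries farthest from the median of Npy, r was 0.66.

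The lateral hypothalamic pair behaved alike. Pmch and Hcrt had r = 0.76 and rho = 0.81 (permutation p 1e-05, adjusted 7.5e-05), and r lay between 0.74 and 0.96 within the 4 groups. Without the 2 libraries farthest from the median of Pmch, r was 0.71.

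Between the arcuate and the lateral hypothalamic pairs the relation was inverse. Agrp and Pmch had r = -0.49 and rho = -0.46 (permutation p 0.00072, adjusted 0.00274), with r between -0.79 in vehicle and -0.34 in vancomycin. Npy and Pmch had r = -0.49 as well, with rho = -0.35 (permutation p 0.00073 and adjusted 0.00274 for r, 0.0582 adjusted for rho), and the value in the combination group was -0.09. Agrp and Hcrt had r = -0.40 (permutation p 0.0119, adjusted 0.0357), which did not pass for rho at -0.27 (adjusted 0.123). Without the 2 libraries farthest from the median of x, r was -0.43 for Npy with Pmch, -0.49 for Agrp with Pmch and -0.29 for Agrp with Hcrt. Npy and Hcrt had r = -0.36 with an adjusted permutation p of 0.0640.

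Gal and Cartpt stood outside this pattern. Gal had r = 0.27 with Npy (adjusted permutation p 0.139) and 0.21 with Cartpt (0.228), although the rank correlation of Gal with Npy passed at rho = 0.43 (0.0154). With Pmch and Hcrt, Gal had r = -0.03 and -0.09. Cartpt had r between 0.16 and 0.32 with the other 5 peptides, and none of these pairs passed.

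Library 31 changed the picture of these pairs. With it, 9 of 15 pairs passed and all 15 values of r were positive, from 0.26 to 0.89, since all 6 peptides were low in that library together. Npy with Pmch turned from -0.49 to 0.35, Agrp with Pmch from -0.49 to 0.38, and Agrp with Hcrt from -0.40 to 0.27. Npy with Agrp (0.85) and Pmch with Hcrt (0.89) passed either way. When each of the other 46 libraries was also left out in turn, Npy with Agrp, Pmch with Hcrt, Npy with Pmch and Agrp with Pmch passed in 46 of 46 fits, and Agrp with Hcrt in 39. For scale, the median r over all pairs of 4973 genes was 0.01 without library 31, with 0.172% of pairs above 0.7 and 3.40% below -0.4.

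**Figure D4:**
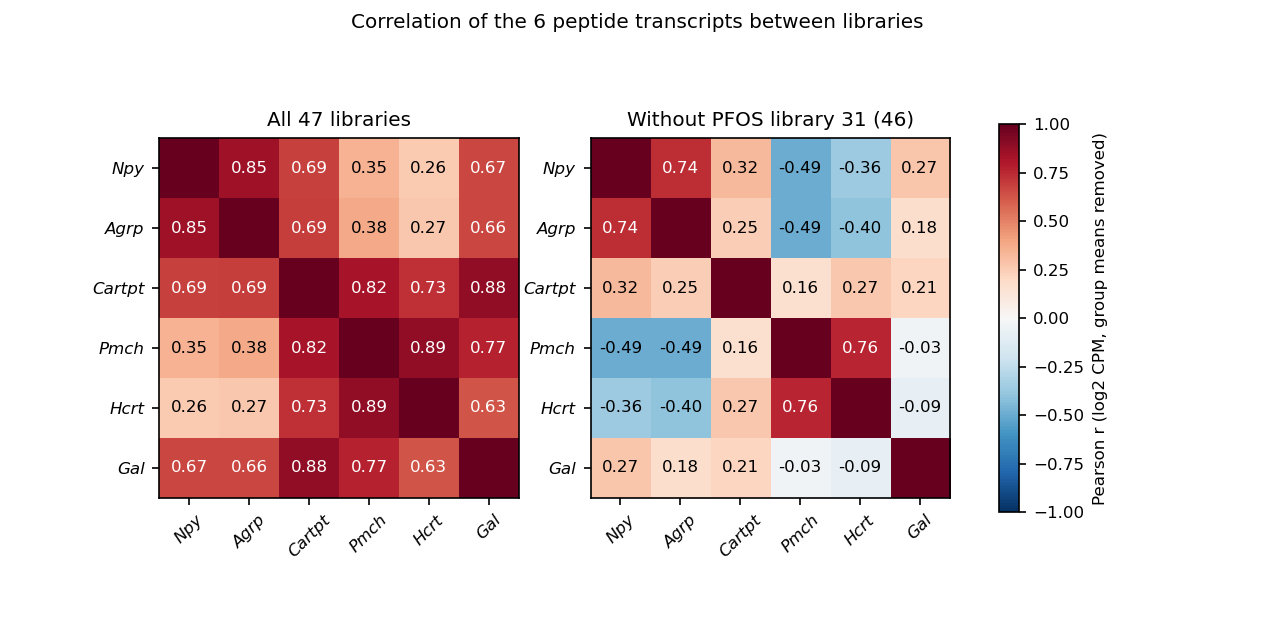
Pearson's r between the 6 peptides over libraries (log2 CPM with group means removed), with all 47 libraries on the left and without PFOS library 31 on the right, red for positive and blue for negative. All pairs are positive on the left, while on the right Npy with Agrp (0.74) and Pmch with Hcrt (0.76) stay high and the pairs between them turn negative (down to -0.49).

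**Figure D5:**
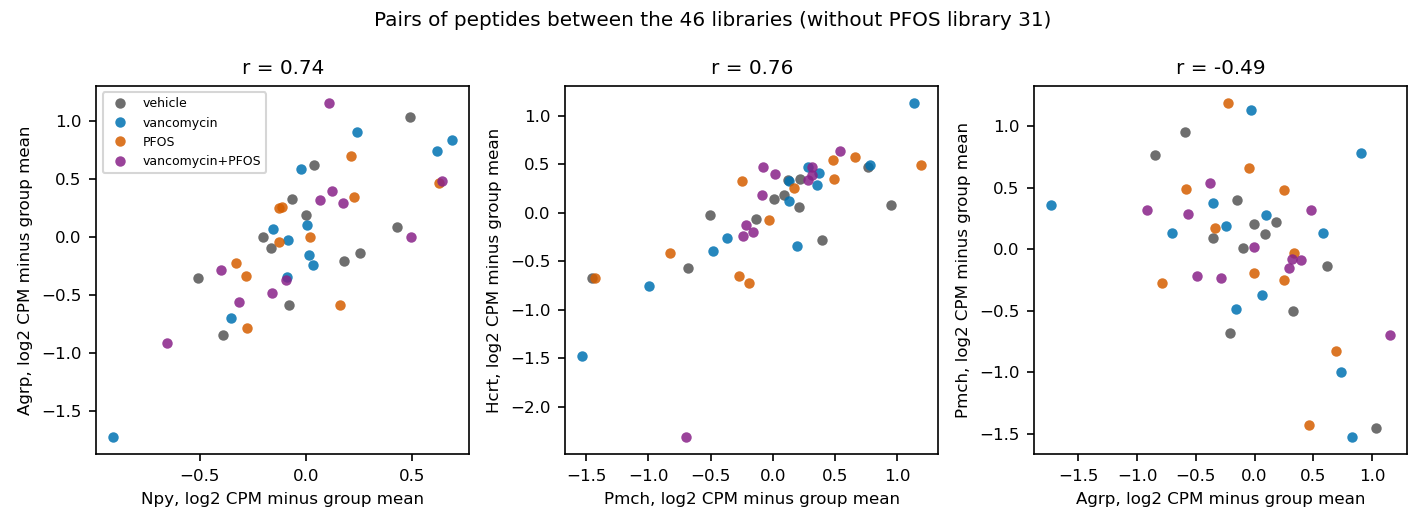
Group-centred log2 CPM of Npy against Agrp, Pmch against Hcrt and Agrp against Pmch in the 46 libraries without PFOS library 31, 1 point per library, coloured by treatment. The first 2 panels rise from left to right (r = 0.74 and 0.76) and the third falls (r = -0.49), with every treatment spread along the trend.

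Markers of other cells and regions moved with the same axis. Against marker sums, single genes and depth, 60 relations were computed and adjusted together, first without library 31. Not every relation that passed is named. Npy and Agrp had r = 0.61 and 0.59 with the sum of 6 tanycyte and ependyma markers (adjusted permutation p 0.0002 and 0.00036), and Pmch had r = -0.60 with it (0.00036). When library 31 was kept, Npy and Agrp had r = 0.68 and 0.65 (0.0006 for both), while Pmch had 0.02 (0.900). The tanycyte is a glial cell lining the floor of the third ventricle beside the arcuate nucleus. That sum ranged from 149 to 287 CPM in vehicle, 137 to 231 in vancomycin, 135 to 263 in PFOS and 119 to 217 in the combination, and 0 of its 4 tested genes were called in the 3 contrasts of PFOS or the combination.

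Pmch also had r = -0.67 with the astrocyte marker sum and 0.76 with Snap25, a gene of nerve terminals (adjusted permutation p 0.0002 for both). Neither relation passed with all 47 libraries, at 0.06 (0.821) and -0.13 (0.474). Snap25 also had r = 0.42 with Hcrt (0.00587) and -0.40 with Agrp (0.0200), or -0.14 (0.429) and -0.61 (0.0036) with all 47. With Pomc, the melanocortin precursor of other arcuate neurons, Agrp had r = 0.41 (adjusted 0.0128), Pmch -0.51 (0.0018) and Npy 0.21 (0.237). The sum of the arcuate markers other than Pomc had r = 0.21 with Agrp (0.280), -0.09 with Pmch (0.727) and 0.34 with Npy (0.0618). When library 31 was kept, Pomc had r = 0.47 with Agrp (0.00525), -0.03 with Pmch (0.892) and 0.33 with Npy (0.0813). Without library 31, the sum of 7 pituitary markers had r = -0.42 with Pmch (adjusted permutation p 0.0214) and -0.43 with Hcrt (0.00618). With all 47 libraries these were -0.02 (0.924) and -0.13 (0.474). A sum of 6 magnocellular and paraventricular markers, without library 31, had r = 0.37 with Pmch (0.0382) and 0.36 with Hcrt (0.0273). With all 47 these were 0.86 (0.00471) and 0.76 (0.00408). Neither sum passed with the other peptides without library 31. Depth moved with the lateral pair: log2 total counts had r = 0.67 with Hcrt (adjusted permutation p 0.0005) and 0.39 with Pmch (0.0216), but 0.32 (0.0916) and 0.03 (0.900) with all 47. With log2 depth regressed out, r was 0.73 for Pmch with Hcrt, 0.72 for Npy with Agrp, -0.45 for Agrp with Pmch and -0.34 for Agrp with Hcrt, the last no longer passing (adjusted 0.0767). Without the 2 libraries farthest from the median, r was 0.65 for Npy and 0.67 for Agrp with the tanycyte sum, -0.51 for Pmch with it, -0.68 for Pmch with the astrocyte sum, 0.74 with Snap25, and 0.56 for Hcrt with log2 depth. Gal had r = -0.54 with the sum of 8 oligodendrocyte markers (adjusted 0.0018; -0.41 without those 2 libraries; -0.43 with all 47, adjusted 0.0008), whose group medians were 8420 CPM in vehicle, 8179 in vancomycin, 8311 in PFOS and 7768 in the combination. Of these 8 markers, the myelin genes Mobp and Mbp fell in the combination. The part of these cells, regions and depth in the differences and correlations was not tested.

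The genes most alike to each peptide were ranked by Spearman's rho over the 46 libraries, among genes of at least 20 CPM. The likeness is a description, since the points share their libraries and depth. For Pmch the leading gene was Parpbp (0.92), which overlaps Pmch in RefSeq, so that reads of the 2 genes cannot be told apart without strand. Hcrt came next (0.81), then Uchl1 (0.71). For Hcrt they were Pmch (0.81), Parpbp (0.76) and Stmn2 (0.76), the last a gene of growing neurites. For Npy they were Agrp (0.72), Cfap126 (0.70) and Etfdh (0.63), and for Agrp they were Npy (0.72), Crabp1 (0.71) and Cbfb (0.57). For Gal they were Pja1 (0.67), Hspa13 (0.67) and Calcr, the calcitonin receptor gene (0.67). For Cartpt they were Sec11a (0.52), Lcmt1 (0.52) and Phospho2 (0.49), lower than the leading genes of the other peptides. With all 47 libraries, other genes entered for Npy (Zdhhc4, 0.60, in place of Etfdh), for Cartpt (Sst, 0.54, and Penk, 0.53, in place of Lcmt1 and Phospho2) and for Pmch (Nipsnap1, 0.66, in place of Uchl1).

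Receptors of the peptides were mostly too low to test. Of 13 receptor genes, 1 passed the filter, Npy1r, which encodes a receptor of neuropeptide Y. It spanned 11.3 to 26.1 CPM in vehicle with a median of 18.8, 12.95 to 28.3 in vancomycin with a median of 17.4, 13.6 to 35.7 in PFOS with a median of 23.7, and 18.6 to 42.2 in the combination with a median of 30.6. The combination libraries sat higher, with overlap. Npy1r rose in the combination against vehicle by a log2 fold change of 0.61 ± 0.18 (edgeR adjusted p 0.0218), and by 0.62 ± 0.17 without library 31 (adjusted p 0.0131). It rose by 0.61 ± 0.18 in the combination against vancomycin (adjusted p 0.0267; 0.0169 without library 31), a call lost in 3 of 47 fits that left out 1 library, those without vancomycin library 18 and without combination libraries 40 and 47. Library 31 was above them all at 42.8 CPM. With log2 depth as a covariate the combination difference from vehicle was 0.58 ± 0.21 with an adjusted p of 0.170, and with usual barcodes only 0.54 ± 0.21 with an adjusted p of 0.133.

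Of 12 genes of hormone sensing, 3 were tested, Calcr, Stat3 and Irs2, and 0 were called with all libraries (Calcr in the combination, 0.49 ± 0.21, edgeR unadjusted p 0.0221, adjusted p 0.132). Without library 31, Calcr, whose receptor takes part in amylin sensing, rose in the combination by 0.50 ± 0.15 (edgeR adjusted p 0.0194). It spanned 33.8 to 85.5 CPM in vehicle and 45.7 to 98.7 in the combination, with medians of 51.0 and 75.3. With log2 depth as a covariate as well, the difference was 0.26 ± 0.16 with an adjusted p of 0.530.

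Among 28 other peptides of feeding and arousal, 18 were tested. Pomc was the one called, 1 of 18 beside 8.14% of all genes, and it fell in the combination by 0.54 ± 0.16 (edgeR adjusted p 0.0308; 0.0267 without library 31). It spanned 96.4 to 324 CPM in vehicle and 74.4 to 179.5 in the combination, with medians of 161.5 and 113, and the highest vehicle value was library 1. Without PFOS library 31 and vehicle library 1 the difference was -0.40 ± 0.14 with an adjusted p of 0.0799. The call was lost in 7 of 47 fits that left out 1 library, among them those without vehicle libraries 1 and 9 and without combination libraries 38, 39, 42, 46 and 47. The median log2 fold change of the 18 peptides was -0.01 in the combination, beside 0.00 over all genes tested (-0.0018 before rounding).

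Of 12 genes of precursor processing, 11 were tested. Ctsl, a cathepsin that can cleave peptide precursors, fell in the combination by 0.47 ± 0.08 on the log2 scale (edgeR adjusted p 0.000201), with group medians of 213 CPM in vehicle and 160.1 in the combination. It fell by 0.40 ± 0.09 in the combination against vancomycin (adjusted p 0.00145), and both calls held in 47 of 47 fits that left out 1 library. Without library 31 the adjusted p was 0.000152 and 0.00126. With log2 depth as a covariate the difference from vehicle was -0.33 ± 0.09 with an adjusted p of 0.0611. For PFOS against vehicle it fell by 0.28 ± 0.08 (adjusted p 0.0318), a call lost without library 31 (-0.25 in that fit, adjusted p 0.0812) and in 10 of the other 46 fits that left out 1 library. Pcsk1n, which encodes an inhibitor of the prohormone convertase PCSK1, fell in the combination against vancomycin by 0.56 ± 0.16 (adjusted p 0.0245; 0.0230 without library 31). That call was lost in 6 of 47 fits that left out 1 library, those without vancomycin libraries 22 and 23 and combination libraries 39, 41, 45 and 47. With log2 depth as a covariate it was -0.27 ± 0.12 with an adjusted p of 0.290. The median over the 11 genes was 0.04 in the combination against vehicle and -0.03 in PFOS against vehicle.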

How the data were processed

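Gene counts per library were deposited by the authors in a table of hypothalamus and pituitary libraries. The submitters' processing notes name BWA 0.7.4.4 and the build rn6. The steps from reads to counts, the handling of molecular identifiers and the use of strand are not given in the sources used here. Groups were taken from the sample titles. Hypothalamus libraries with at least 100000 counts were kept. Counts were tested with edgeR 4.0.16 in R 4.3.3 (TMM scaling, filterByExpr with a minimum count of 10, robust quasi-likelihood fit of all groups, Benjamini-Hochberg over all genes tested), with DESeq2 1.42.0 as an alternative. The fit was tested on simulated data: for PFOS against vehicle, it recovered 66% of the simulated 1.5-fold changes and 94% of the 2-fold ones among 6501 genes. The changed genes were drawn at random, so these percentages are not those of the 6 peptides. With all 47 libraries, the peptides had BCVs of 0.268 to 0.580, beside 0.157 for the median gene. Correlations used log2(CPM + 1) with group means subtracted and 100000 permutations within groups. The members and gene lists were chosen with earlier results of these data known. The genes named were the 6 peptides, up to 4 called genes per list and contrast by lowest adjusted p, and the 3 genes with the highest Spearman's rho to each peptide; Gpr151 and Chrna3 were added after their values were seen. Alternatives changed the test, scaling, filter, depth minimum, covariates and libraries, and those without PFOS library 31 were added after the data were seen. Promoter sequences came from RefSeq (GRCr8).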

Additional observations from a re-analysis of the deposited data

How the results depend on the processing

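Among the 6 peptides, the count called in the combination against vehicle was 0 with all 47 libraries. It was 1, Gal, when only the 2 groups were compared, and, without PFOS library 31, also 1 with DESeq2 (10% of all genes called), with DESeq2 size factors (8.87%), with only the 2 groups (8.09%) and with the well column as a factor (9.48%). Without library 31 it was 0 with no filter on low counts (2.56%), a depth minimum of 500000 counts (4.64%), log2 depth as a covariate (0.765%) and usual barcodes only (4.84%). For PFOS in vancomycin-treated rats it was 0, and 1, again Gal, with only the 2 groups (with or without library 31; 9.86%) and, without library 31, with the well column as a factor (8.35%). Leaving out libraries gave 0 to 1 for both contrasts. Of the 15 pairs, 9 passed with all libraries, 7 with Spearman's rho, 11 with log2 depth regressed out and 14 without group centring. Without library 31, 5 passed, and then 5 with a pseudocount of 5 CPM and 6 each with usual barcodes only or without group centring. In that setting 4 each passed with Spearman's rho, TMM-scaled CPM, a depth minimum of 500000 counts or log2 depth regressed out. Leaving out 1 library gave 5 to 9 passing pairs, and leaving out library 31 with 1 more gave 4 to 7. The cause of these changes was not tested. No paired analysis was possible because the hypothalamus groups share no replicate number. They share plate well columns, which gave the fit with the well column as a factor and do not mark related animals in the labels. Depth limits Agrp most, with 898 counts in all.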
